A study of Homo sapiens with 6 samples.

Results

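The 62 nuclear-encoded respiratory chain genes are described here in PANC-1, a human cell line derived from pancreatic ductal adenocarcinoma (PDAC). They were taken by gene name from the 58735 rows of the count table. The name rule used no measured value, but it was chosen with earlier results of these data known. The 62 genes comprise 36 complex I genes (7 core and 29 accessory), 4 complex II genes, 9 complex III genes, 12 complex IV genes and CYCS, the gene of cytochrome c. The name rule takes subunits that the nuclear genome encodes; COX7A2L, a factor of supercomplex assembly, and NDUFA4, now assigned to complex IV, also carry such names and were kept in complex IV. All 62 passed the filter on low counts, the lowest with 51 and 95 counts in all 6 libraries together.

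Wild-type PANC-1 cells received conditioned medium (CM) from PANC-1 cells that overexpressed MLKL and were cultured with macrophages (CM-MLKL, 3 libraries), or from empty-vector PANC-1 cells cultured likewise (CM-Vector, 3 libraries). MLKL is the protein that breaks the plasma membrane in necroptosis, and it was overexpressed in the cells that made the medium, not in the cells sequenced. The series gives a time of 72 h; the methods state this as the length of the co-culture. The methods describe macrophages derived from the THP-1 monocytic line for co-culture with PDAC cells. Only 1 cell line was sequenced, and both groups received medium of co-cultured cells, so there is no group on plain medium.

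The respiratory chain sits in the inner mitochondrial membrane. Complex I takes electrons from NADH and complex II takes them from succinate, and both pass them to coenzyme Q. Complex III hands them to cytochrome c, and complex IV passes them to oxygen. Complexes I, III and IV pump protons and are built from subunits of both the nuclear and the mitochondrial genome, whereas complex II is wholly nuclear-encoded.

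Transcription of these genes is classically linked to NRF-1, to the ETS factor GABP (also called NRF-2) and to YY1. Short matches were searched on both strands of the RefSeq promoter windows (GRCh38.p14, 250 bases before to 50 after each gene start), which were at hand for 52 of the 62 members as 61 windows, some genes having more than 1 start. The core letters of the NRF-1 site, CGCANGCG, were present in 19 of these 61 windows (31.1%), against 10.04% of all 35116 promoter windows. The GABP letters CCGGAAG were present in 15 (24.6%), against 10.3% of all windows, and the YY1 letters AAGATGGC in 9 (14.8%), against 2.89%. At least 1 of the 3 motifs was found in 34 windows (55.7%), against 20.4% of all windows. Matches of different motifs did not overlap in the 4 windows printed. The NRF-1 letters are a shortened form, chosen after a longer form had been counted, and the shorter form matches more windows, members and others alike.

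The promoters of 3 complex II genes and of UQCRC1 are shown, because the complex II genes of this fully nuclear complex parted from one another in single libraries and UQCRC1 had the largest positive difference of complex III. Letters read 5′ to 3′ on the gene's strand, with every match to the 3 motifs in capitals.

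SDHA, chromosome 5, chr5:218070-218369, plus strand: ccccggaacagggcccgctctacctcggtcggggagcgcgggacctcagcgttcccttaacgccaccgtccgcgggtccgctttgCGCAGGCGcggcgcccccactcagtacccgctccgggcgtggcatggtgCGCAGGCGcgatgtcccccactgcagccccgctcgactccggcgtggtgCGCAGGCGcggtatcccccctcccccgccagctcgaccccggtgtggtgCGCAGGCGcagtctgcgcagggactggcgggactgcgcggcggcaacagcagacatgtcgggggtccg
SDHB, chromosome 1, chr1:17053983-17054282, minus strand: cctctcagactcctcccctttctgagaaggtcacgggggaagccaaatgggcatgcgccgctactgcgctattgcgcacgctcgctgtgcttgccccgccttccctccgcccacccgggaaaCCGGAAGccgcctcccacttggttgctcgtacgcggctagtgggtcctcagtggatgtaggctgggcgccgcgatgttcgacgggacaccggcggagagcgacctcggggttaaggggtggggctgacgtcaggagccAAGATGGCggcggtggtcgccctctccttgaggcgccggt
SDHD, chromosome 11, chr11:112086623-112086922, plus strand: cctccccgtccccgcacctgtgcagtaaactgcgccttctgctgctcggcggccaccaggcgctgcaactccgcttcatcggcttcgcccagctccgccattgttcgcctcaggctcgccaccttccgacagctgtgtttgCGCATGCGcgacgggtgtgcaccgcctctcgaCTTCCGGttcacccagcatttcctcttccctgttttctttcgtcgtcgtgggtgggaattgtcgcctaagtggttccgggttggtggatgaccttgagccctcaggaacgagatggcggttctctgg
UQCRC1, chromosome 3, chr3:48609597-48609896, minus strand: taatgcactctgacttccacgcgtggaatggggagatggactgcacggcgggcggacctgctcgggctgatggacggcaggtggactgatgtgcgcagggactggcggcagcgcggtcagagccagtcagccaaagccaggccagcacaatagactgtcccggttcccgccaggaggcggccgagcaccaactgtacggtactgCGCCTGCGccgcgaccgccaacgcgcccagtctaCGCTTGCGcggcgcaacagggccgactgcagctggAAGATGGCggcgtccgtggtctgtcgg

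The SDHA window held 4 NRF-1 matches, starting at positions -165, -116, -67 and -18 from the gene start. The SDHB window held 1 GABP match, starting at -128, and 1 YY1 match after it. The SDHD window held 1 NRF-1 match, starting at -109, and 1 GABP match, at -77 on the opposite strand. The UQCRC1 window held 2 NRF-1 matches, starting at -46 and -12 and both on the opposite strand, and 1 YY1 match after them. These matches describe letters only, since no binding was measured, and no link to the levels in any library was tested.

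Library totals lay between 15838403 and 17885429 counts, and levels are given as TMM-scaled counts-per-million values (CPM). The TMM factors were 1.017, 0.938 and 1.026 for CM-MLKL libraries 1 to 3, and 1.156, 0.926 and 0.953 for CM-Vector libraries 1 to 3. A higher factor lowers every CPM value of its library, so part of the low CPM values of CM-Vector library 1 lies in its factor. Across all 14046 genes tested, CM-Vector libraries 2 and 3 correlated at r = 0.988, whereas CM-Vector library 1 correlated with them at 0.923 and 0.922. CM-MLKL library 2 leaned towards GC-rich transcripts, with a correlation of 0.61 across genes between transcript GC content and its level relative to the 6-library mean, and CM-MLKL library 3 leaned the other way (-0.51), as did CM-Vector library 1 (-0.38), which also leaned towards longer transcripts (0.24). Genes are not independent replicates, and these correlations are descriptions. The 7 ductal and epithelial markers summed to between 2955 and 4090 CPM with CM-MLKL, against 4847 to 5648 CPM with CM-Vector. This sum moved with the group, but KRT8 made up most of it in every library. KRT8 had 1820 to 2384 CPM with CM-MLKL, against 3148 to 3810 CPM with CM-Vector. Of the 7 markers, 6 were negative and KRT17 was positive (0.24). KRT8 and KRT18 were above 810 CPM in every library; KRT19 (-0.79) and KRT8 (-0.70) had the smallest unadjusted p-values, and 0 of the 7 passed the test. The 14 macrophage markers summed to between 20.03 and 23.7 CPM with CM-MLKL, against 12.8 to 18.7 CPM with CM-Vector. Without LAPTM5 they summed to 4.08 to 5.25 CPM with CM-MLKL, against 5.61 to 8.66 CPM with CM-Vector, so the direction of the sum rested on that gene. PTPRC, MRC1, C1QA and CD86 had 0 counts in all 6 libraries, 3 of the 14 passed the filter and 0 passed the test, with ITGAM at -1.38, CD14 at -0.88 and LAPTM5 at 0.98. LAPTM5 had 15.96, 18.44 and 16.57 CPM with CM-MLKL, against 9.98, 7.18 and 8.60 CPM with CM-Vector, and the part of either marker list in the values below was not tested.

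No member of the respiratory chain passed the test in either direction. With the edgeR quasi-likelihood test and Benjamini-Hochberg adjustment over all genes at 0.05, 0 of 62 members were higher and 0 were lower with CM-MLKL than with CM-Vector, beside 0.406% of all genes tested that were higher and 0.107% that were lower. At an unadjusted p under 0.05, 1 member (NDUFA7) was positive and 0 were negative, beside 3.24% and 2.98% of all genes. The DESeq2 test also called 0 members in either direction, beside 0.516% of all genes higher and 0.222% lower, as did limma-voom, beside 0.42% and 0.0997%. The lowest adjusted p of any member was 0.737. Values in every library are given for members chosen by their role or by the smallest p in each complex; a member named for another extreme was chosen after its values were seen.

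The median log2 fold change (CM-MLKL over CM-Vector) over the 62 members was -0.047, beside -0.043 over all genes tested. Of the members, 41 had a negative value and 21 a positive one (66.1% negative, beside 55.5% of all genes). The median size of a member's change, without its sign, was 0.12, beside 0.23 for all genes. By complex, the medians were -0.026 for complex I, 0.042 for complex II, -0.066 for complex III and -0.098 for complex IV, where 11 of 12 members were negative, and CYCS stood at -0.27. These signs depended on single CM-Vector libraries: the complex IV median was 0.025 without CM-Vector library 2, 0.006 without library 3 and -0.27 without library 1. Over all members, 22 of 62 were negative without CM-Vector library 2, and 27 without library 3.

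**Figure D1:**
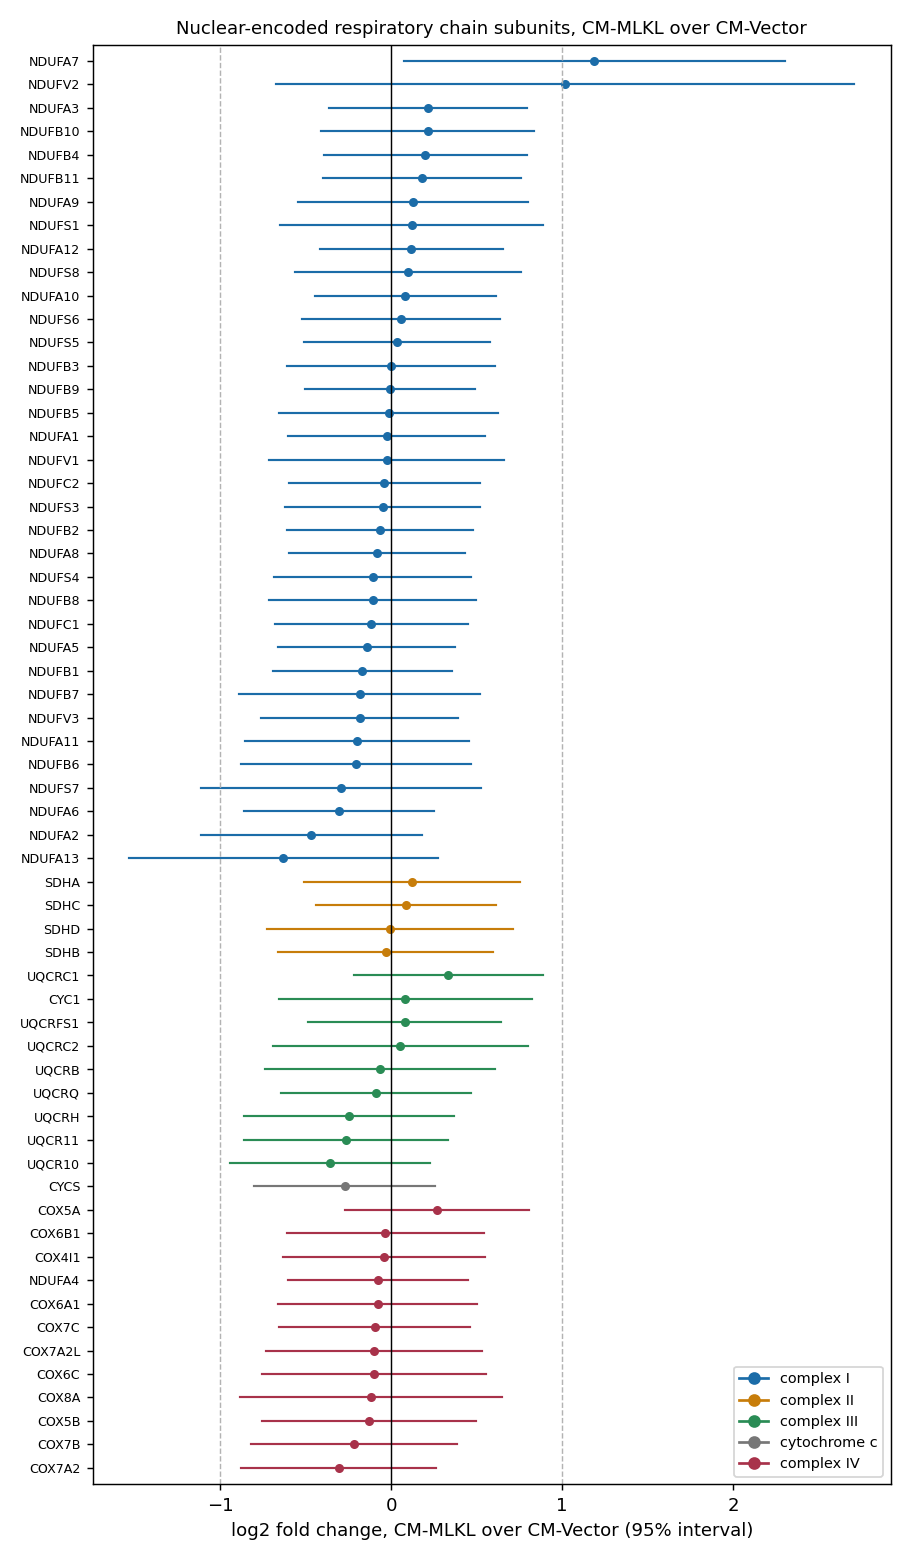
Log2 fold change of 61 members, CM-MLKL over CM-Vector, with its 95% interval (x axis, dashed lines at 2-fold either way) and the members listed by complex down the page. Of these intervals 56 lie inside 2-fold either way, and NDUFA7 at the top is the only one that does not cross 0.

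How far these 6 libraries limit a change can be read from the intervals. The 95% interval, from each gene's standard error and the model's degrees of freedom, lay wholly inside a 2-fold change either way for 57 of 62 members, and inside 1.5-fold for 2. The standard errors ran from 0.22 to 0.76 with a median of 0.27. Changes of well under 2-fold were not detectable here, and larger ones could also go without a call. NDUFA7, at a log2 fold change of 1.19 ± 0.50, did not pass. A missing call therefore does not show equal levels.

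Only 2 members had groups that did not overlap, both with CM-MLKL above (beside 6.43% of all genes), and 0 had CM-MLKL below (beside 5.5%). COX5A, a nuclear subunit of complex IV, had 167, 177 and 175 CPM in the CM-MLKL libraries, against 106, 166 and 158 CPM in the CM-Vector libraries. The gap to the nearest CM-Vector library was small, and CM-Vector library 1 was far below the others. The log2 fold change of COX5A was 0.27 ± 0.24 (SE, n = 3 each; edgeR adjusted p = 0.999). NDUFA7, an accessory complex I subunit, had 13, 11 and 11 counts with CM-MLKL, against 6, 4 and 6 counts with CM-Vector. Its log2 fold change of 1.19 ± 0.50 (edgeR adjusted p = 0.737) rests on 51 counts in all.

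The core subunits of complex I bind the flavin and the iron-sulphur clusters along which electrons run to coenzyme Q. NDUFV1, which carries the flavin and the NADH site, had 259.9, 378.9 and 240.5 CPM with CM-MLKL, against 184.2, 344.3 and 367.0 CPM with CM-Vector. The ranges overlapped almost wholly, and the log2 fold change was -0.03 ± 0.31 (SE; edgeR adjusted p = 0.999). NDUFS1, the largest core subunit, had 99.5, 41.5 and 118.8 CPM with CM-MLKL, against 86.6, 80.2 and 72.2 CPM with CM-Vector. Libraries 1 and 3 of CM-MLKL were above every CM-Vector library and library 2 was below every one, so the mean difference of 0.12 ± 0.35 joins opposite deviations. The other core genes ran from -0.29 (NDUFS7) to 1.02 (NDUFV2), the last on 95 counts.

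The accessory subunits surround the core and serve its stability and assembly. NDUFA2 had the smallest unadjusted p (0.141) among the negative complex I members, with 73.2, 93.9 and 80.4 CPM with CM-MLKL, against 69.7, 143.5 and 128.5 CPM with CM-Vector. All CM-MLKL values lay below CM-Vector libraries 2 and 3 and above CM-Vector library 1. Its log2 fold change was -0.47 ± 0.29 (edgeR adjusted p = 0.999; 95% interval -1.11 to 0.18). The 29 accessory genes ranged from -0.63 (NDUFA13, 220 counts in all) to 1.19 (NDUFA7), with 10 positive, 19 negative and a median of -0.040.

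Complex II doubles as the succinate dehydrogenase of the citric acid cycle. SDHA, its flavoprotein, had 131.6, 151.7 and 134.3 CPM with CM-MLKL, against 78.6, 150.4 and 155.3 CPM with CM-Vector. Library 1 of CM-Vector stood alone, and the log2 fold change was 0.12 ± 0.29 (SE). SDHB, the iron-sulphur subunit, had 274.1, 181.9 and 266.6 CPM with CM-MLKL, against 168.8, 292.9 and 277.6 CPM with CM-Vector. Here 1 library in each group was low, and the change was -0.03 ± 0.28. SDHD, a membrane anchor, had 117.3, 60.6 and 150.2 CPM with CM-MLKL, against 88.8, 122.8 and 117.6 CPM with CM-Vector. CM-MLKL library 2, which was low for SDHB and SDHD, was the highest CM-MLKL library for SDHA. Subunits of 1 complex thus parted within a single library, the one that leaned towards GC-rich transcripts. Transcript GC content was 54.4% for SDHA, 45.9% for SDHB, 50.1% for SDHC and 48.3% for SDHD. The part of GC content in this split was not tested. SDHC, the other anchor, averaged 199.4 ± 18.7 CPM with CM-MLKL and 187.6 ± 34.9 CPM with CM-Vector (SD, n = 3 each).

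In complex III, UQCRC1, a core protein facing the matrix, had 529.2, 593.9 and 472.7 CPM with CM-MLKL, against 318.9, 496.7 and 449.1 CPM with CM-Vector. All CM-MLKL values except that of library 3 lay above the CM-Vector range, and the log2 fold change was 0.34 ± 0.25 (edgeR adjusted p = 0.999; 95% interval -0.22 to 0.89). UQCR10, a small subunit, ran the other way, with 95.8, 110.5 and 89.1 CPM with CM-MLKL, against 86.4, 146.3 and 146.0 CPM with CM-Vector. Its change was -0.36 ± 0.27 (edgeR adjusted p = 0.999), again with CM-Vector library 1 below every other library. UQCRFS1, the Rieske iron-sulphur protein, had 170.2, 133.7 and 189.6 CPM with CM-MLKL, against 118.8, 180.6 and 167.8 CPM with CM-Vector. Its ranges overlapped (0.08 ± 0.26). CYC1, the cytochrome c1 that passes electrons to cytochrome c, had 529.9, 792.5 and 493.8 CPM with CM-MLKL, against 322.3, 731.3 and 663.2 CPM with CM-Vector. Its mean difference of 0.08 ± 0.33 (SE) spanned the highest value in CM-MLKL library 2 and the lowest in CM-Vector library 1.

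CYCS carries electrons between complexes III and IV and, once released into the cytosol, activates caspases. It had 370.4, 293.8 and 423.6 CPM with CM-MLKL, against 472.6, 456.2 and 384.8 CPM with CM-Vector. CM-Vector library 1, the lowest for most subunits, was the highest for CYCS. Its log2 fold change was -0.27 ± 0.24 (edgeR adjusted p = 0.999; 95% interval -0.80 to 0.26).

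In complex IV the nuclear subunits surround a catalytic core encoded by mitochondrial DNA. COX4I1, which takes part in regulation by ATP, had 536.8, 563.4 and 436.5 CPM with CM-MLKL, against 371.6, 643.3 and 569.7 CPM with CM-Vector. The CM-MLKL values lay inside the CM-Vector range, and the change was -0.04 ± 0.27. COX7A2 had 551.5, 507.9 and 461.4 CPM with CM-MLKL, against 473.0, 802.4 and 606.8 CPM with CM-Vector, and it had the smallest unadjusted p of the negative members of the complex (-0.31 ± 0.26). COX7A2L, which joins complexes III and IV, had 623.3, 771.7 and 530.5 CPM with CM-MLKL, against 458.5, 805.4 and 800.2 CPM with CM-Vector (-0.10 ± 0.29). NDUFA4 had 522.3, 631.3 and 473.3 CPM with CM-MLKL, against 481.5, 622.1 and 613.6 CPM with CM-Vector (-0.08 ± 0.24). The groups overlapped for both genes. The remaining 7 members of complex IV ran from -0.22 (COX7B) to -0.03 (COX6B1).

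**Figure D2:**
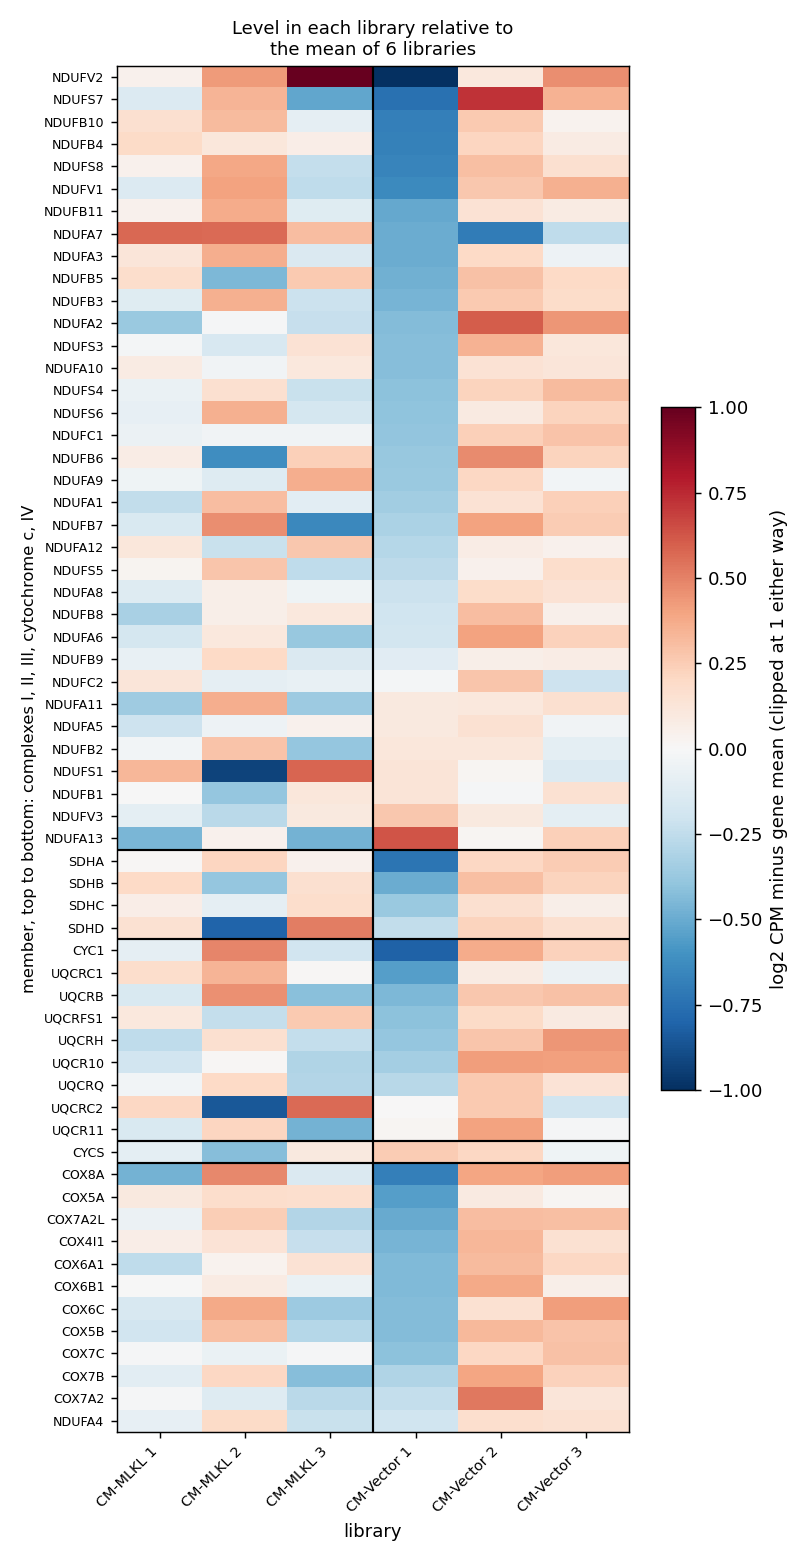
Log2 CPM of 61 members (rows, grouped by complex) in each of the 6 libraries (columns) minus the mean of that gene over the 6 libraries, clipped at 1 either way. CM-Vector library 1 is the lowest column for 39 of the 61, and CM-MLKL library 2 holds the deepest values for NDUFS1, SDHD and UQCRC2.

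The members moved together mainly by library. CM-Vector library 1 was the lowest of the 6 libraries for 40 of 62 members (64.5%), against 27.7% of all genes tested. Against the mean of CM-Vector libraries 2 and 3 on the log2 scale, it was lower for 55 members and higher for 7, with a median difference of -0.59. The widest gap, -2.63, belonged to NDUFV2 with its 1 count in that library, and CYC1 (-1.11), COX8A (-1.09) and NDUFS7 (-1.28) followed among members with more counts. The members that were not low there included CYCS (0.17), NDUFS1 (0.19), NDUFV3 (0.27) and NDUFA13 (0.50).

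CM-MLKL library 2 split the members instead. Against the mean of CM-MLKL libraries 1 and 3, 43 members were higher and 19 lower, from -1.39 (NDUFS1), -1.23 (UQCRC2, a core protein of complex III) and -1.13 (SDHD) to 0.86 (NDUFB7). The median transcript GC content was 53.2% for the members above and 45.2% for those below. Across the 62 members, the correlation of GC content with the level relative to the 6-library mean was 0.47 in this library, -0.34 in CM-MLKL library 3 and -0.08 in CM-Vector library 1. In CM-Vector library 1 the lower and higher members had median GC contents of 50.8% and 48.0%. The part of GC content in any member's group difference was not tested beyond a fit with GC and length offsets, in which 0 members were higher and 0 lower (beside 0.676% and 0.242% of all genes) and the median was -0.015.

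**Figure D3:**
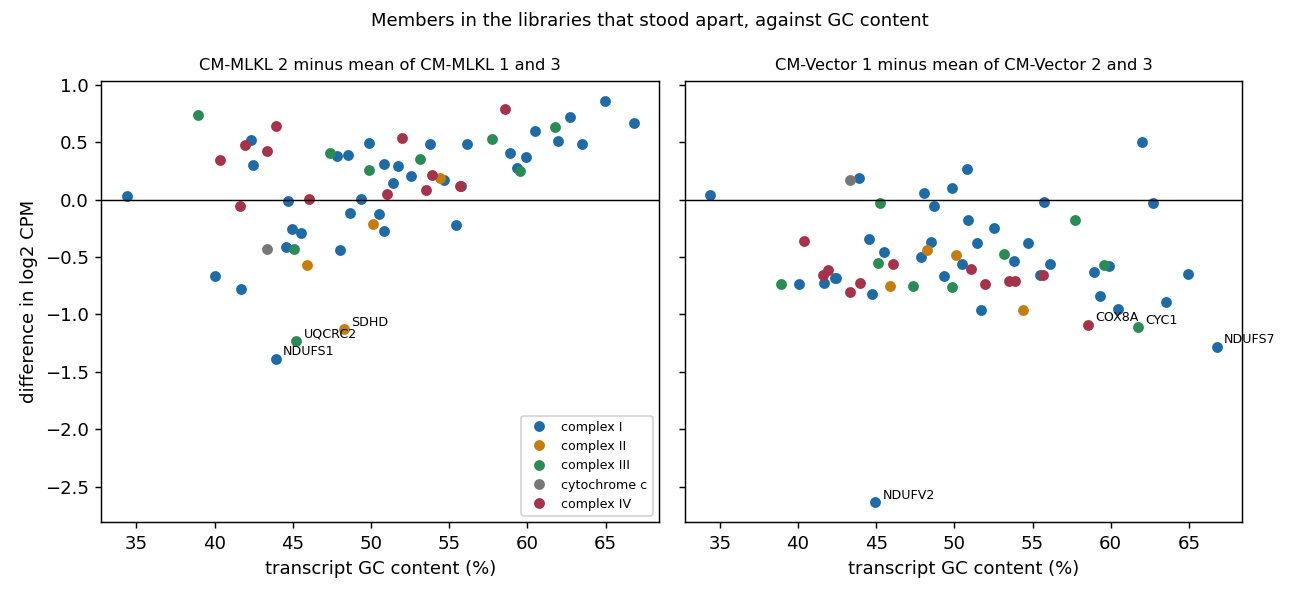
Difference in log2 CPM of each member (points coloured by complex) against transcript GC content in percent, for CM-MLKL library 2 minus the mean of CM-MLKL libraries 1 and 3 (left), and for CM-Vector library 1 minus the mean of CM-Vector libraries 2 and 3 (right). In the left panel the 19 members below 0 have a median GC content of 45.2% and the 43 above it 53.2%; in the right panel 55 of 62 lie below 0.

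Summed over the 62 genes, the members took 13270, 15340 and 12460 CPM in the CM-MLKL libraries, against 10500, 16400 and 15590 CPM in the CM-Vector libraries. CM-Vector library 1 was the lowest for the sums of complexes I, II, III and IV. For complex IV the sums were 4649, 5440 and 4247 CPM with CM-MLKL, against 3708, 6055 and 5696 CPM with CM-Vector. For the 11 mitochondrially encoded chain subunits CM-Vector library 1 was instead the highest. Their sums were 11110, 7480 and 11830 CPM with CM-MLKL, against 17550, 7065 and 6714 CPM with CM-Vector. All CM-MLKL sums of these subunits lay above those of CM-Vector libraries 2 and 3 and below that of CM-Vector library 1. Their median log2 fold change was -0.093, beside -0.047 for the nuclear members. CM-Vector library 1 entered these medians from opposite ends, so their shared sign shows no common shift. All mitochondrially encoded genes together took 3.86% of the counts of CM-Vector library 1, against 3.85% and 3.36% in CM-Vector libraries 2 and 3. The ratio of the mitochondrially encoded to the nuclear sum was 0.84, 0.49 and 0.95 with CM-MLKL, against 1.67, 0.43 and 0.43 with CM-Vector. The 3 CM-MLKL ratios lay inside the CM-Vector range, above CM-Vector libraries 2 and 3 and below CM-Vector library 1. In bulk RNA, fewer cells or mitochondria of a kind and less RNA in each cannot be told apart.

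**Figure D4:**
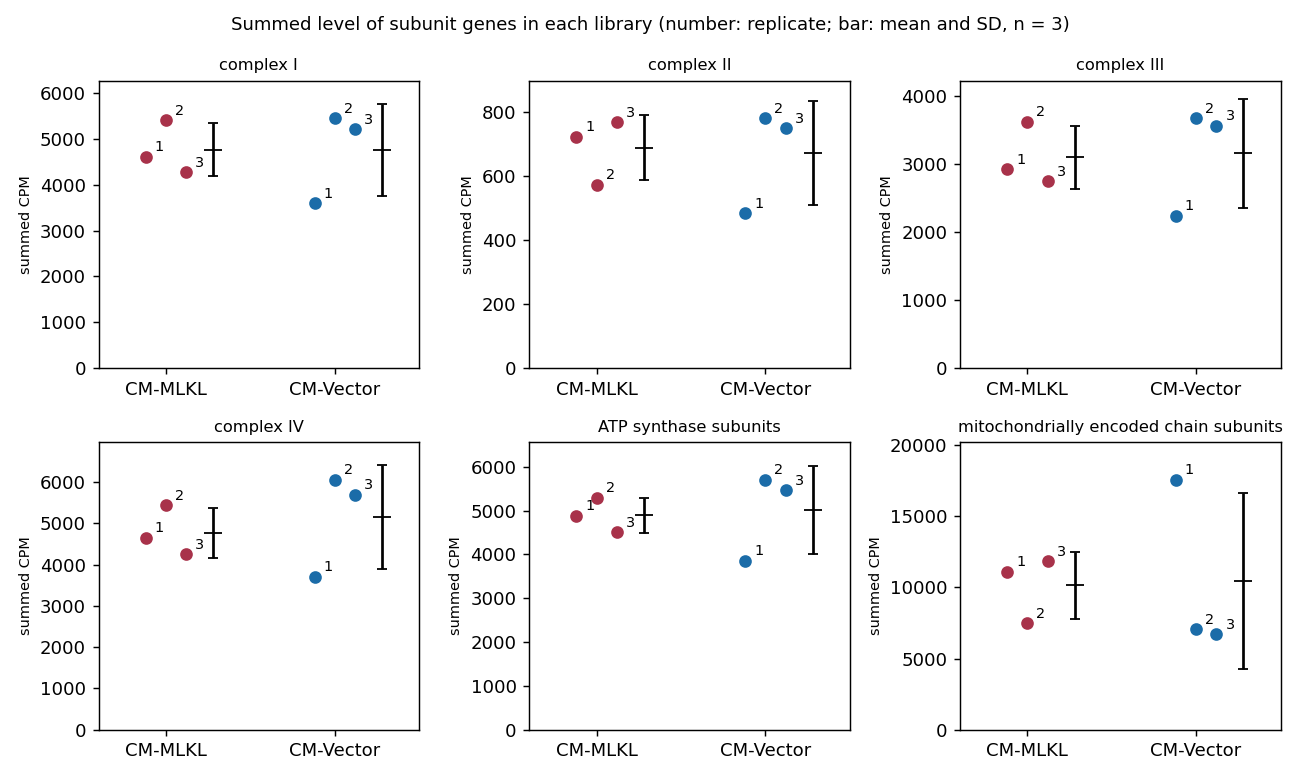
Summed CPM (y axis, from 0) of the genes of complexes I to IV, the ATP synthase and the mitochondrially encoded chain subunits in each library, with CM-MLKL left and CM-Vector right; numbers are replicates and bars are mean and SD (n = 3 each). CM-Vector library 1 is the lowest for the nuclear sums and, at 17550 CPM, the highest for the mitochondrially encoded sum.

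Because these libraries stood apart, the comparison is given without each of them and without both; leaving out both was chosen after seeing the data. Without CM-Vector library 1, 0 members were higher and 0 lower (beside 1.44% and 0.755% of all genes), and their median log2 fold change was -0.17. Without CM-MLKL library 2 the counts were again 0 and 0 (beside 0.0964% and 0.0275%), with a median of -0.11. Without both, with 2 libraries left per group, 19 of 62 members were lower and 1 was higher by edgeR, 30.6% and 1.61% of the members, beside 12.7% and 11.4% of all 14168 genes tested. The median was then -0.26, beside 0.02 over all genes. These counts rest on 4 libraries, and the outcome with all 6 stays at 0. CM-Vector library 1 was below the mean of CM-Vector libraries 2 and 3 for 55 members. CM-MLKL library 2 was above the mean of CM-MLKL libraries 1 and 3 for 43. Leaving out both thus itself moves most members towards lower values. The counts and p-values of this setting are a description and no test of a group difference.

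The 19 lower members in that setting were 8 of 36 in complex I, 5 of 9 in complex III and 6 of 12 in complex IV, with 0 of 4 in complex II. Their changes ran from -0.86 to -0.36, with NDUFA2 at -0.83 (edgeR adjusted p = 0.00038), UQCR10 at -0.66, NDUFV1 at -0.51 and COX7A2L at -0.48. The higher one was NDUFS1, at 0.52. The median without both libraries was -0.45 in complex III and -0.40 in complex IV.

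Levels of different members can be set side by side only per length. In CPM per kb of the median annotated transcript, complex IV had the highest median, 594 with CM-MLKL and 644 with CM-Vector, and complex I the lowest, 125 and 142. COX7A2 was the highest of the 62 (1198 with CM-MLKL, 1483 with CM-Vector), followed by UQCRH, the hinge protein of complex III (1177 and 1397). The spread over libraries of these 2 genes was wider than the distance between them. NDUFS5 was the highest complex I member (820.6 and 801.2), while the catalytic SDHA (69.3 and 63.8) lay below its partners SDHC (433 and 408) and SDHB (343 and 351) in both groups. The length is the median over annotated protein-coding transcripts of any size, 2009.5 bases for SDHA, 460 for SDHC and 702 for SDHB. These orders, and that of the complexes, therefore depend in part on the lengths used. Before division, mean CPM with CM-MLKL was 139.2 for SDHA, 199.4 for SDHC and 240.9 for SDHB.

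**Figure D5:**
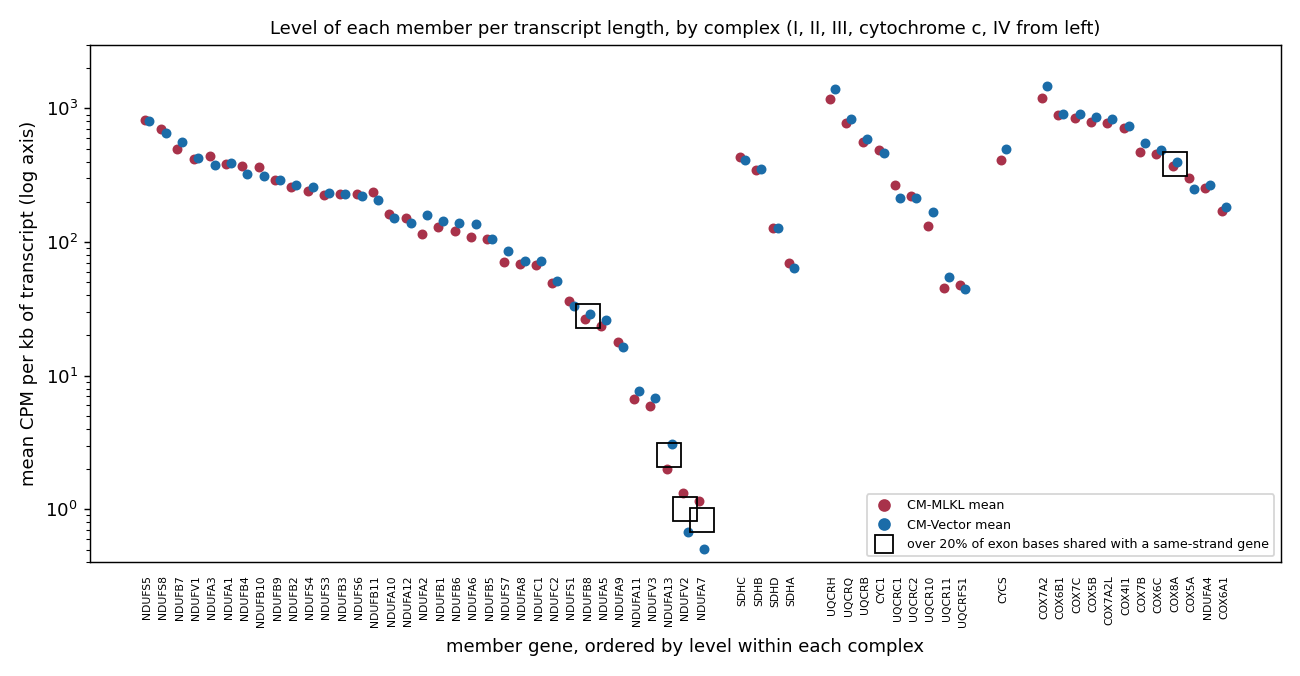
Mean CPM per kb of transcript (log axis) of 61 members with CM-MLKL (red, left) and CM-Vector (blue, right), ordered by level within each complex, with open squares on genes that share over 20% of their exon bases with another gene on the same strand. Complex I spans from 821 to 1.16 CPM per kb with CM-MLKL, and 3 of the 5 squares mark its lowest genes.

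Some members share exon bases with other genes, and levels among them ran from the lowest to well above the median. In GENCODE 29, 18 members share exon bases with another gene on the same strand, and their median was 60.0 CPM per kb, against 268 for the 44 that share none. The 6 lowest members per length were NDUFA7, NDUFV2, NDUFA13, NDUFV3, NDUFA11 and NDUFA9, and 5 of them share such bases, whereas NDUFV3 shares none. COX8A shares the most, 34.5%, at 384 CPM per kb over all libraries, and NDUFS3 shares 19.6% at 227 CPM per kb. NDUFA7 shares 32.3% of its exon bases on the same strand, NDUFV2 28.4% and NDUFA13 21.0%. The same-strand genes that overlap NDUFA7 and NDUFV2 hold 7 and 1 counts in all. How reads that fit both genes were counted is not given, and its part in these low levels was not tested. NDUFV2 had 95 counts and its pseudogene row NDUFV2P1 253. Of the other members, SDHA had pseudogene rows holding 9.24% of its own counts, and COX6A1 5.996%. UQCRHL, a near-copy of UQCRH, held 2376 counts beside 79413 for UQCRH. Further, 23 members overlap a gene on the opposite strand. Reads of such genes cannot be told apart if strand was not used in counting, which is not stated. NDUFA7 is among them, with 6.3% of its exon bases shared with RPS28. RPS28 averaged 418 CPM with CM-MLKL and 521.6 CPM with CM-Vector, and its part in the NDUFA7 counts was not tested.

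Other genes of the pathway gave the same count. Among 18 ATP synthase subunits, which use the proton gradient, 0 were higher and 0 lower, with a median of -0.056; ATP5MG (-0.36) and ATP5ME (-0.26) had the smallest unadjusted p-values. Among 18 complex I assembly factors the counts were 0 and 0 with a median of 0.006, and the 2 with the smallest p, DMAC1 and TMEM126B, stood at -0.39 and -0.26. Among 33 of 34 assembly factors of complexes II, III and IV that could be tested, 0 passed either way. Of these, 27 were negative and the median was -0.18, beside 55.5% and -0.043 over all genes tested. The list summed to 1272 to 1310 CPM with CM-MLKL, against 1126, 1637 and 1549 CPM in CM-Vector libraries 1 to 3. For 3 of its genes the groups did not overlap, all with CM-MLKL below, beside 5.5% of all genes. UQCC1, needed to make cytochrome b, had 34.7, 24.1 and 33.9 CPM with CM-MLKL, against 54.96, 47.02 and 43.18 CPM with CM-Vector. Its groups did not overlap, and its change was -0.65 ± 0.26 (edgeR adjusted p = 0.651). PET117, a complex IV assembly factor, stood at -0.83 ± 0.46 with levels between 0.875 and 2.29 CPM.

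Regulators and electron donors were also without a call. Of 17 tested regulators of mitochondrial gene expression 0 passed, with SLIRP, which binds mitochondrial mRNA, at -0.43 and POLG, the mitochondrial DNA polymerase, at 0.44. PPARGC1A, a coactivator of these genes, was between 0 and 0.147 CPM, with at most 3 counts in any library (3 counts are 0.147 to 0.202 CPM, depending on the library). The tissue-restricted isoforms COX4I2 and COX6A2 also lay between 0 and 0.307 CPM, and NDUFA4L2 (0.45) and COX6B2 (-0.63) had the smallest p of the 4 genes tested in the list of isoforms and of subunits outside the name rule. In the citric acid cycle and pyruvate dehydrogenase 0 of 17 genes passed, with CS, citrate synthase, at 0.34 and IDH3A at -0.43.

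Coenzyme Q takes the electrons of complexes I and II. Of 18 genes of its synthesis and of other donors to it, 0 passed in either direction. COQ7, a hydroxylase of the synthesis, had 10.79, 10.03 and 12.53 CPM with CM-MLKL, against 15.3, 18.6 and 17.1 CPM with CM-Vector. Its groups did not overlap, as for 1 of the 18 genes with CM-MLKL below, beside 5.5% of all genes. The change of COQ7 was -0.61 ± 0.27 (edgeR adjusted p = 0.772). COQ8A, an atypical kinase of the pathway, had 15.6, 21.0 and 14 CPM with CM-MLKL, against 16.1, 34.0 and 39.4 CPM with CM-Vector, and its groups overlapped (-0.82 ± 0.35, edgeR adjusted p = 0.754). Among the 11 mitochondrially encoded chain subunits 0 passed. MT-ND1, a membrane subunit of complex I, had 396.4, 273.1 and 267.5 CPM with CM-MLKL, against 1120, 131.5 and 145.0 CPM with CM-Vector. A single CM-Vector library set the sign of its log2 fold change (-0.58 ± 0.69), and MT-ND2 stood at 0.25 ± 0.34.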

How the data were processed

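Per the study's methods, the authors enriched mRNA on oligo(dT) beads, made libraries with a NEBNext Ultra kit, sequenced them on an Illumina instrument, filtered reads with fastp and assembled mapped reads with StringTie; aligner, build, strand setting and counting rule are not given. The values deposited by the authors are whole-number counts of reads, not normalised. Of 58735 names, 58708 matched GENCODE 29 (GRCh38), the source of gene lengths and GC content, and 27 read as dates.

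Genes were kept by filterByExpr (minimum count 10, minimum total 15) of edgeR 4.0.16 in R 4.3.3, scaled by TMM and compared with its quasi-likelihood test, two-sided, adjusted over 14046 genes. Totals were 15838403 to 17885429 counts. The script was tested on simulated data. Promoter windows came from RefSeq. Alternatives were other scalings, filters and tests (DESeq2 1.42.0, limma 3.58.1), left-out libraries, GC and length offsets and a replicate block.

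The members and lists were chosen with earlier results of these data known. Genes named with values in every library were those past the threshold, the member with the smallest unadjusted p in each direction of each complex, and 13 genes fixed by role; other lists gave those past the threshold or the 2 with the smallest p. Values of 1 member are not reported here, though it is part of all counts. The study's methods describe 3 independent experiments; p-values measure the spread between these libraries only.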

Additional observations from a re-analysis of the deposited data

How the results depend on the processing

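With 62 members (59 under a filter of 5 CPM in 3 libraries), 0 were higher and 0 lower under every setting run except the one that left out 2 libraries, and the median log2 fold change was -0.035 with DESeq2 size factors, -0.050 with library totals, -0.024 in the DESeq2 test and -0.074 under the 5 CPM filter. Leaving out 1 library at a time, it ran from -0.17 (without CM-Vector library 1) to 0.06 (without CM-Vector library 2), and 0 members were called each time. Leaving out both CM-Vector library 1 and CM-MLKL library 2, chosen after seeing the data, gave 1 higher and 19 lower members. The complex I core, III and IV medians were then -0.17, -0.45 and -0.40. CYC1 stood at -0.45 in place of 0.08 (edgeR adjusted p = 0.0128, the lowest of its 17 settings). This choice itself moves most members towards lower values, so these values are a description, and the cause was not tested. Whether replicate numbers pair the samples was left undecided. Same-numbered libraries deviated with r = 0.17, 0.17 and -0.31, and libraries of unlike number with r from -0.31 to 0.36. Deviations from a mean of 3 libraries are not independent, so these values cannot decide it. With a replicate block 0 members were called and the median was -0.045. Over all genes 112 were then higher and 43 lower, against 57 and 15 without the block. Over all genes, no filter on low counts gave 149 higher and 100 lower of 26578, the DESeq2 test 137 and 59, GC and length offsets 95 and 34, and the block with these offsets 93 and 32; single left-out libraries gave 14 to 206 higher and 4 to 108 lower. The 3 libraries per group and standard errors near 0.27 limit what could be called.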
